A study of Rattus norvegicus with 12 samples.

Results

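Tight junctions join the cells of the colonic epithelium near their apical border and set how much water, ions and small molecules pass between the cells. Their strands are built from claudins, some of which seal the space between cells while others form pores for ions, together with occludin and junctional adhesion molecules, and scaffold proteins tie the strands to the actin cytoskeleton. A loosened epithelial barrier is one of the features studied in irritable bowel syndrome and in the stress models of it. Here 10 tight junction genes were followed in rat colon: Cldn1, Cldn3, Cldn4, Cldn7 and Cldn8, which are mostly counted among the sealing claudins, the pore-forming claudins Cldn2 and Cldn15, occludin (Ocln), the junctional adhesion molecule F11r and the scaffold protein Tjp1 (ZO-1). Members were all non-control probes of the array named for these genes, that is, 12 of 30367 probes, 2 each for Cldn2 and Tjp1 and 1 for each of the other genes.

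The colon was that of male Wistar rats killed at postnatal day 60, with 1 Agilent array of 1 colour (Cy3) per rat. Group C (rats C1 to C4) held normally handled rats given placebo, 100 µl saline, by daily gavage from day 3 to day 60. Group M (rats M5 to M8) held rats under neonatal maternal separation (NMS), 180 min per day from day 2 to day 14, given the same placebo. Group D (rats D9 to D12) held NMS rats given the probiotic mixture VSL#3, at a dose of 1.8e+10 bacteria in 100 µl saline per the labels, over the same days as the placebo. All 3 groups underwent colorectal distension, so none of them was free of that procedure, and every sample was a whole piece of colon wall near the anus in which fewer cells of a type and less RNA per cell cannot be told apart.

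Levels are log2 signals relative to the 75th percentile of the array, so that 1 unit is a 2-fold difference and levels of different probes cannot be set against each other. The methods analysed 11 arrays and showed D9 to D11 for Group D, so D12 was left out of the comparisons, and its level is given beside those of the members the results turn on. Group C and Group M lay on 1 slide and Group D on another with its own scan, so that slide and group cannot be told apart for Group D. The share of probes well above background was 71.0% to 73.5% per array. All 12 genes of a list of epithelial markers were well above background on every array, with a mean level of 3.40 to 4.08 per rat, as were all 8 smooth muscle markers, and of 8 markers of the stratified squamous epithelium found next to the anus 5 were so on every array and 2 on none.

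Each of the 12 probes could be read in nearly every rat. Signals of 10 of them cleared the background on all 12 arrays, that of Cldn1 on 11 (not D9) and that of Cldn15 on 11 (not D12), and no probe was saturated. The positions below are those given for the rn4 build. The Cldn15 probe lay at chr12:20844124-20844183, the Cldn1 probe at chr11:76488733-76488792, the Cldn8 probe at chr11:28421245-28421304, the Cldn4 probe at chr12:22817873-22817932 and the F11r probe at chr13:87392812-87392871. The Ocln probe lay at chr2:31317108-31317167 and the Cldn3 probe at position 770655 to 770714 of the unplaced part of chromosome 12. The Cldn2 probes lay at chrX:127548305-127548364 (probe 1) and chrX:127546789-127546848 (probe 2), and the Tjp1 probes at chr1:119685220-119685279 (probe 1) and chr1:119689604-119689663 (probe 2). The Cldn7 probe has 60 bases but spans 171 positions, chr10:56812476-56812646, and so was built across a gap in the genomic sequence. The probe sequences below are those within coding sequence, and they show which stretch of transcript was read for the gene with the largest difference between Groups M and C (Cldn15), for the gene whose probe crosses a gap (Cldn7), for Cldn8, and for the second probes of Cldn2 and Tjp1. Capitals mark the TAG stop codon at the end of the Cldn15 probe.
Cldn15: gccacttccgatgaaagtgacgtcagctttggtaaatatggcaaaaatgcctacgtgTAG
Cldn7: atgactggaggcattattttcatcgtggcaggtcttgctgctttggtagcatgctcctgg
Cldn8: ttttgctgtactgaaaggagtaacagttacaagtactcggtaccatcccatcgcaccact
Cldn2 probe 2: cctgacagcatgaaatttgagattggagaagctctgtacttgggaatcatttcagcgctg
Tjp1 probe 2: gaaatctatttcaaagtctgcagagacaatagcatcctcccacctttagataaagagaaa

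The first question was whether NMS altered the tight junction genes, that is, Group M against Group C. Of the 12 probes none was called at an adjusted p of at most 0.05 (limma, Benjamini-Hochberg over all 30367 probes), where the share called among all probes was 0.204%. At an unadjusted p of at most 0.05 there were 3, Cldn15, Cldn3 and F11r, that is, 25% of the probes against 22.7% of all probes, a share close to the background. All 3 were lower in Group M, where 12.6% of all probes were lower at that p. The median difference of the 12 probes was -0.06, against -0.01 over all probes. For 9 of the 12 probes the 95% interval of the difference lay within 2-fold in either direction.

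Cldn15 forms channels for sodium and other cations between epithelial cells. In Group C its levels were -4.77 in C1, -5.38 in C2, -4.58 in C3 and -4.70 in C4. In Group M they were -5.84, -5.44, -6.73 and -6.43 in M5 to M8. Every Group M rat lay below every Group C rat, with M6 close to C2. Cldn15 was the 1 member without overlap between Groups M and C, where 9.23% of all probes did not overlap. Its mean level was -6.11 ± 0.58 in Group M and -4.86 ± 0.35 in Group C (SD, n = 4 each), a level of 42.0% of that in Group C. The difference of -1.25 ± 0.30 (SE) had a 95% interval of -1.91 to -0.59, an unadjusted p of 0.00176 and an adjusted p of 0.0971 in limma, and was the largest among the members. By the criterion of the methods (p of at most 0.05 in both the test over the 3 groups and the pairwise test after it, and at least 2-fold) Cldn15 was the 1 member to pass, where 2.31% of all probes passed. It passed with any 1 of the 11 rats left out, but not with D12 added, when the adjusted p in limma was 0.213. With another background correction (normexp), which adds an offset of 50 to the intensities, the difference was -0.49 (adjusted p of 0.077 in limma). The Cldn15 intensities were only 18 to 75 in Groups C and M, and such an offset makes log2 differences of dim probes smaller.

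Cldn3, a sealing claudin, had levels of 5.89, 5.58, 6.01 and 6.14 in C1 to C4. In M5, M6, M7 and M8 they were 5.26, 5.93, 5.25 and 5.36. Of the Group M rats 3 lay below the whole of Group C, and M6 lay among the Group C rats. The difference was -0.46 ± 0.18 (SE), with an interval of -0.85 to -0.07 and an adjusted p of 0.166 in limma.

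F11r, the adhesion molecule JAM-A, had levels of 1.83, 1.60, 1.93 and 1.90 in C1 to C4. In M5 to M8 they were 1.51, 1.69, 1.67 and 1.41. The ranges overlapped only through C2, whose level lay below those of M6 and M7. The difference was small, -0.24 ± 0.10 (SE), with an adjusted p of 0.202 in limma.

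Whether these genes were called depended on which rats were used and how they were weighted. Without M6, and with D12 left out, Cldn15 (-1.47) and Cldn3 (-0.61) were called at an adjusted p of at most 0.05, while 16.2% of all probes were called as well. With M6 left out and D12 included no member was called. A fit that gives each array a weight, with M6 kept and D12 left out, called Cldn15, Cldn3 and F11r, with 26.8% of all probes.

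The remaining sealing claudins overlapped between the groups and did not pass the test. Cldn4 ranged from 2.02 to 2.60 in Group C and from 1.24 to 2.66 in Group M, where M5 and M6 were the low rats, with a difference of -0.41 (interval -1.04 to 0.21). Cldn8, a claudin of the distal colon, ranged from -3.92 to -2.59 and from -4.05 to -2.75, with a difference of -0.30 (interval -0.99 to 0.38). Cldn7, which also lies along the sides of epithelial cells, differed by 0.11 (interval -0.19 to 0.41). The interval of Cldn4 reached past 2-fold lower, that of Cldn8 almost to 2-fold lower, and that of Cldn7 stayed within 2-fold. Cldn1 differed by 0.60, with a wide interval of -0.50 to 1.69.

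The genes most often measured as markers of the tight junction lay closest to 0. Ocln, a membrane protein with 4 membrane passes, differed by -0.05 (interval -0.75 to 0.64), and its levels ranged widely within Group C, from 0.57 in C2 to 2.17 in C4. Tjp1 differed by 0.02 (interval -0.27 to 0.31) by probe 1 and by -0.06 (interval -0.44 to 0.31) by probe 2. Cldn2, which forms pores for cations and water, differed by 0.07 (interval -0.46 to 0.60) by probe 1 and by 0.01 (interval -0.44 to 0.46) by probe 2. The 2 probes of each of these genes went together over the 12 arrays, with a Pearson's r of 0.88 for Cldn2 and 0.91 for Tjp1, as a description of probes read on the same arrays.

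**Figure D1:**
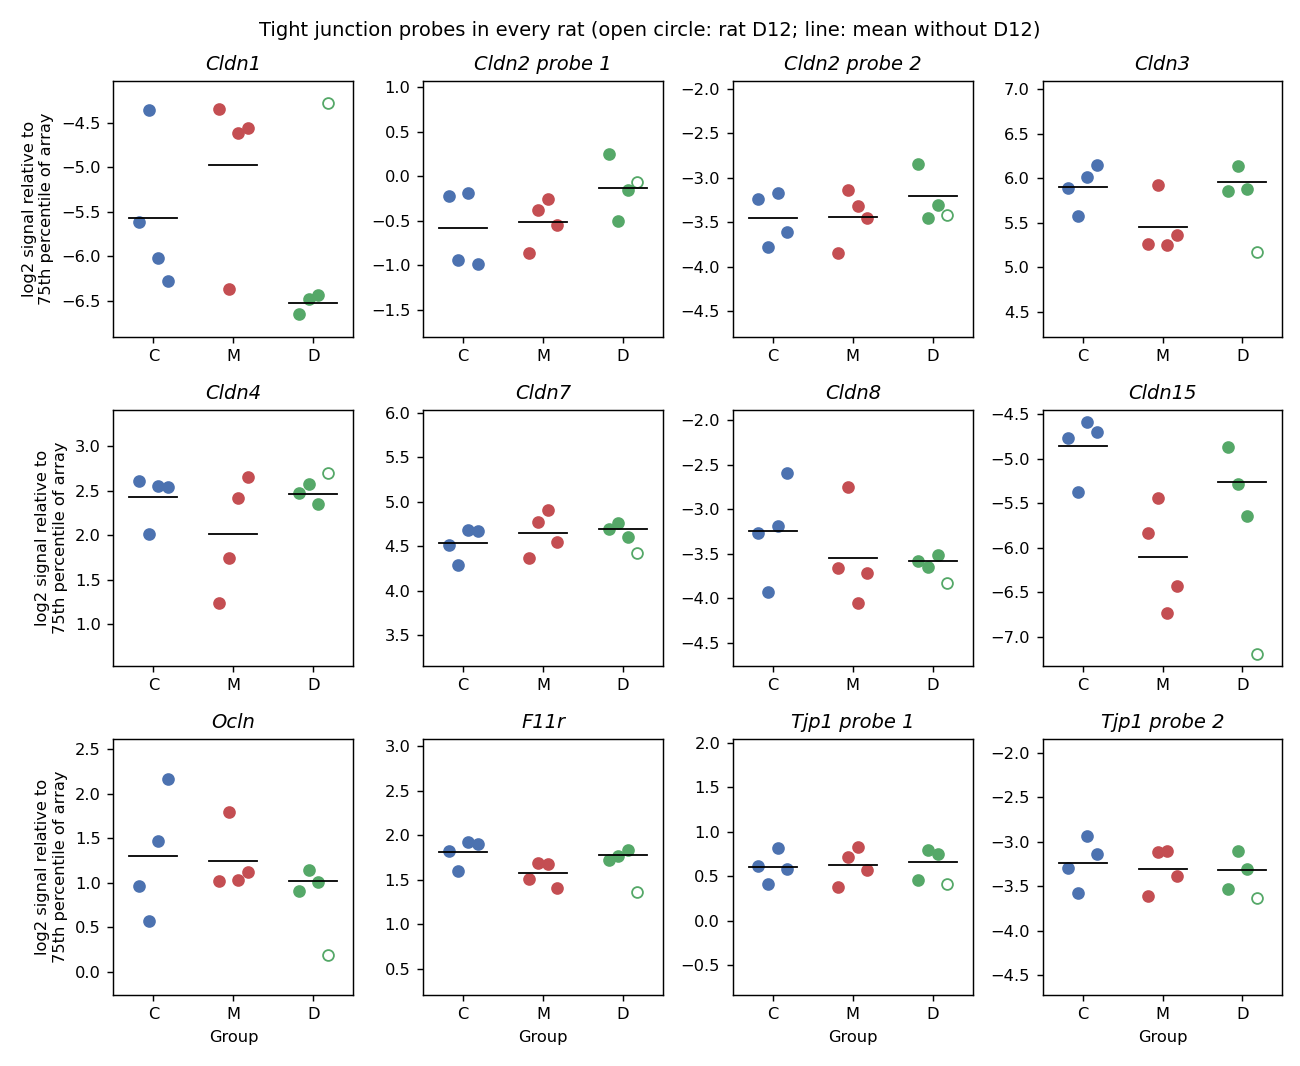
Level of each of the 12 tight junction probes in every rat, as log2 signal relative to the 75th percentile of the array (vertical axis, with the same span but a different centre in each panel), by group (horizontal axis). Points are rats, the open circle is D12 and the line is the group mean without D12. Cldn15 is lower in all 4 Group M rats than in Group C, Cldn1 falls into high and low rats within groups, and Ocln, Cldn7 and Tjp1 overlap in all 3 groups.

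The second question was whether VSL#3 altered these genes in NMS rats, that is, Group D against Group M. No member was called, where 0.171% of all probes were. At an unadjusted p of at most 0.05 there were again 3 of 12 probes, against 21.6% of all probes. They were Cldn1, lower in Group D, and Cldn15 and Cldn3, higher in Group D. This comparison shares the Group M rats with the first, so a high or low Group M sets a difference in both. The median difference of the 12 probes was 0.12, against 0.01 over all probes, and no member passed the criterion of the methods, which 2.66% of all probes passed.

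Cldn1, a sealing claudin found in many epithelia, had levels of -4.35, -6.37, -4.62 and -4.56 in M5 to M8. In D9, D10 and D11 they were -6.65, -6.48 and -6.44, and in D12 the level was -4.28. The 3 Group D rats of the comparison lay just below M6 and far below the other Group M rats, while D12 was the highest of all 12 rats. Cldn1 and F11r were the 2 members without overlap between D9 to D11 and Group M, where 15.8% of all probes did not overlap. The Cldn1 difference was -1.55 ± 0.53 (SE), a level of 34.1% of that in Group M, with an interval of -2.74 to -0.37, an unadjusted p of 0.0153 and an adjusted p of 0.146 in limma. It was -0.99 with an adjusted p of 0.547 in limma when D12 was included, and -0.49 with the normexp background. There too the offset of 50 makes the difference smaller, as the Cldn1 intensities were only 18 to 89 in Group M and D9 to D11. In D9 Cldn1 was not well above background, so the 34.1% has no exact size. Group C lay between, at -5.61, -4.36, -6.02 and -6.28 in C1 to C4, where C2 was as high as M5.

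Cldn15 was at -4.86 in D9, -5.28 in D10 and -5.65 in D11, above Group M except that D11 lay below M6. In D12 it was -7.19, the lowest of all rats and not well above background. The difference was 0.85 ± 0.32 (SE), with an interval of 0.13 to 1.56 and an adjusted p of 0.170 in limma, and it was 0.36 (adjusted p of 0.780) with D12 included.

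Cldn3 was at 5.86, 6.13 and 5.88 in D9 to D11, above M5, M7 and M8, and at 5.17 in D12, the lowest of all rats. The difference was 0.51 ± 0.19 (SE), with an interval of 0.09 to 0.93 and an adjusted p of 0.164, and 0.31 with D12 included. F11r was at 1.73, 1.77 and 1.83 in D9 to D11 and at 1.36 in D12. D9 to D11 lay above every Group M rat and D12 below every Group M rat. The F11r difference was 0.20 (interval -0.05 to 0.45, adjusted p of 0.322 in limma).

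The calls again depended on the rats used. Without M6, and with D12 left out, Cldn1 (-2.02), Cldn3 (0.67) and Cldn15 (1.07) were called at an adjusted p of at most 0.05, with 14.8% of all probes. With array weights, M6 kept and D12 left out, Cldn1, Cldn3, Cldn15 and F11r were called, with 21.7% of all probes. With D12 included and M6 left out no member was called. The criterion of the methods was passed by Cldn1 and Cldn15 without M6, and by Cldn1 without C2, which enters through the test over the 3 groups.

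For the other members the difference between Groups D and M was 0.45 for Cldn4 (interval -0.22 to 1.13), -0.04 for Cldn8 (-0.78 to 0.70), 0.04 for Cldn7 (-0.28 to 0.37) and -0.22 for Ocln (-0.97 to 0.53). Ocln was at 0.91, 1.15 and 1.01 in D9 to D11, within or near the range of M5, M7 and M8, and at 0.19 in D12, the lowest of all rats. Tjp1 differed by 0.04 (interval -0.28 to 0.36) by probe 1 and -0.01 by probe 2. Cldn2 differed by 0.38 (interval -0.19 to 0.95) and 0.24 (interval -0.24 to 0.72), higher in Group D by both probes but with overlapping rats.

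Between Groups D and C, that is, NMS rats given VSL#3 against normally handled rats, no member was called, where 0.00659% of all probes were, and none reached an unadjusted p of 0.05, where 5.97% of all probes did. None passed the criterion of the methods, which 0.369% of all probes passed. The smallest adjusted p of a member was 0.899. Cldn1 was the 1 member without overlap (7.57% of all probes), at -0.96 with an interval of -2.14 to 0.23, and D12 ended this. Cldn15 differed by -0.40 (interval -1.12 to 0.31), and by -0.89 with D12. Cldn3 differed by 0.05 (interval -0.37 to 0.47), F11r by -0.04 (interval -0.29 to 0.21) and Cldn2 by 0.45 (interval -0.13 to 1.02) by probe 1.

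**Figure D2:**
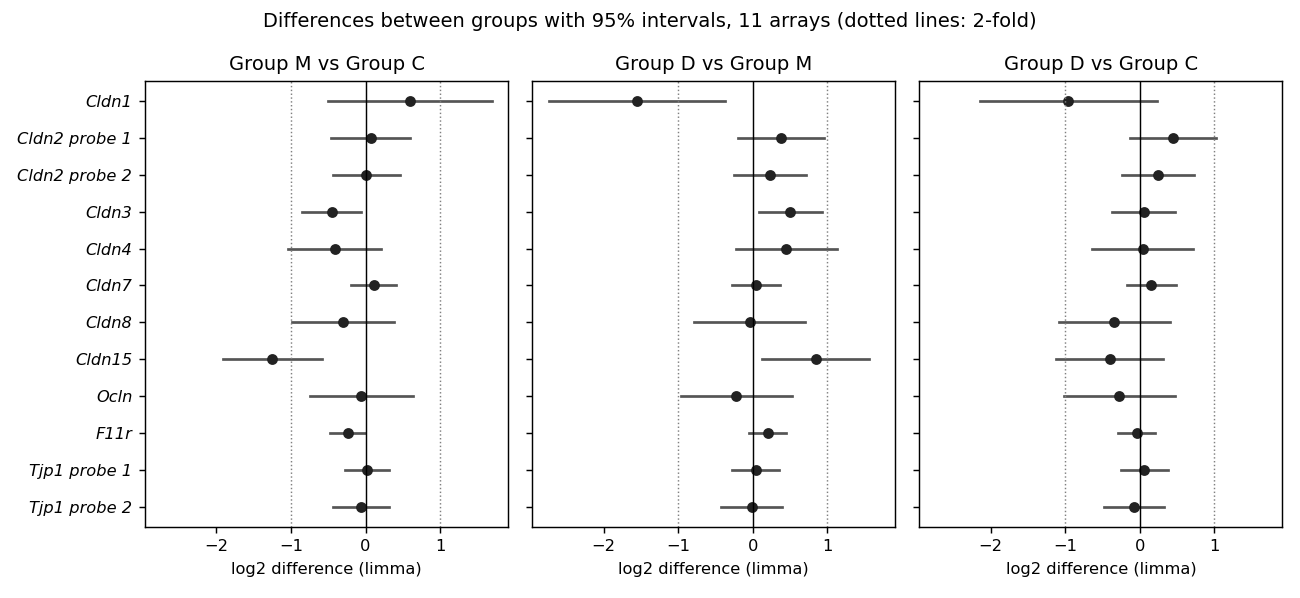
Difference of each tight junction probe in log2 units (horizontal axis) between the first and the second group named above each panel, with its 95% interval from limma on 11 arrays. Intervals that do not reach 0 are those of Cldn15, Cldn3 and F11r in Group M vs Group C and of Cldn1, Cldn3 and Cldn15 in Group D vs Group M. Those of Cldn3, Cldn7, F11r, both Tjp1 probes and Cldn2 probe 2 lie within the dotted 2-fold lines in all 3 panels.

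Several members were high or low in the same rats as the mean of a list of white blood cell markers, within groups as well as between them. The mean level of the leukocyte markers, 8 of 9 of which were well above background on all arrays, ranged from -2.64 to -0.53 in Group C, from -2.60 to -0.49 in Group M and from -2.85 to 0.07 in all 4 rats of Group D. The 5 rats with the highest means were C2, M5, M7, M8 and D12. The same 5 rats had the 5 highest levels of Cldn1 and the 5 lowest levels of Cldn3, of Cldn8 and of F11r, and they held 4 of the 5 lowest levels of Cldn15. They also held 4 of the 5 lowest levels of Cldn7 and of both Tjp1 probes, but M7 among them had the highest level of all rats for Cldn7 and Tjp1 probe 1. For Cldn4 they held 2 of the 5 highest and 3 of the 5 lowest levels, and for Ocln 1 and 2. For Cldn2 they held 1 and 3 by probe 1 and 0 and 3 by probe 2. How many of all probes split the rats in this way was not counted. Whether the split is particular to tight junction genes therefore cannot be told. The epithelium list was lowest in D12, C2 and M5, which are among these 5 rats. In the other rats among them it was not low, at 4.06 in M7, near its highest mean of 4.08, and at 3.86 in M8. Ptprc, which encodes CD45 of all white blood cells, was at 1.34 to 2.51 in these rats and at -1.41 to -0.65 in the other rats. Of the list, the B cell gene Ms4a1 was well above background on 8 of 12 arrays and the other genes on every array. Cd3d, Cd3e, Cd2, Cd79b, Ms4a1 and Cd68 were, like Ptprc, higher in each of these 5 rats than in every other rat. Itgam and Csf1r did not separate these rats from the others. Itgam was at -1.68, -1.71 and -1.79 in M5, M7 and M8, below -1.46 in C1. Csf1r was at -1.87 in M7, below -1.52 in C3. The part of white blood cells in the differences of the members was not tested.

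The leukocyte list had 1 of 9 genes higher in Group M than in Group C by the unadjusted p (beside 22.7% of all probes), with a median difference of 1.02, and 6 of 9 lower in Group D than in Group M (beside 21.6%), with a median of -1.30. Markers of surface colonocytes, the mature absorptive cells in which several of these claudins are found, had 1 gene higher and 2 lower of 10 in Group M than in Group C (median -0.46), and 6 higher in Group D than in Group M (median 0.96). Their mean level was 0.81 to 1.59 in Group C, 0.46 to 1.46 in Group M, 1.59 to 1.93 in D9 to D11 and 0.91 in D12, which lay within Group M. Markers of the crypt base and of dividing cells had 4 of 7 higher in Group M than in Group C (median 0.74) and 1 higher and 4 lower in Group D than in Group M (median -0.71). The same shares of all probes stand beside these counts, and no gene of these 3 lists was called. The part of these cells was not tested either.

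**Figure D3:**
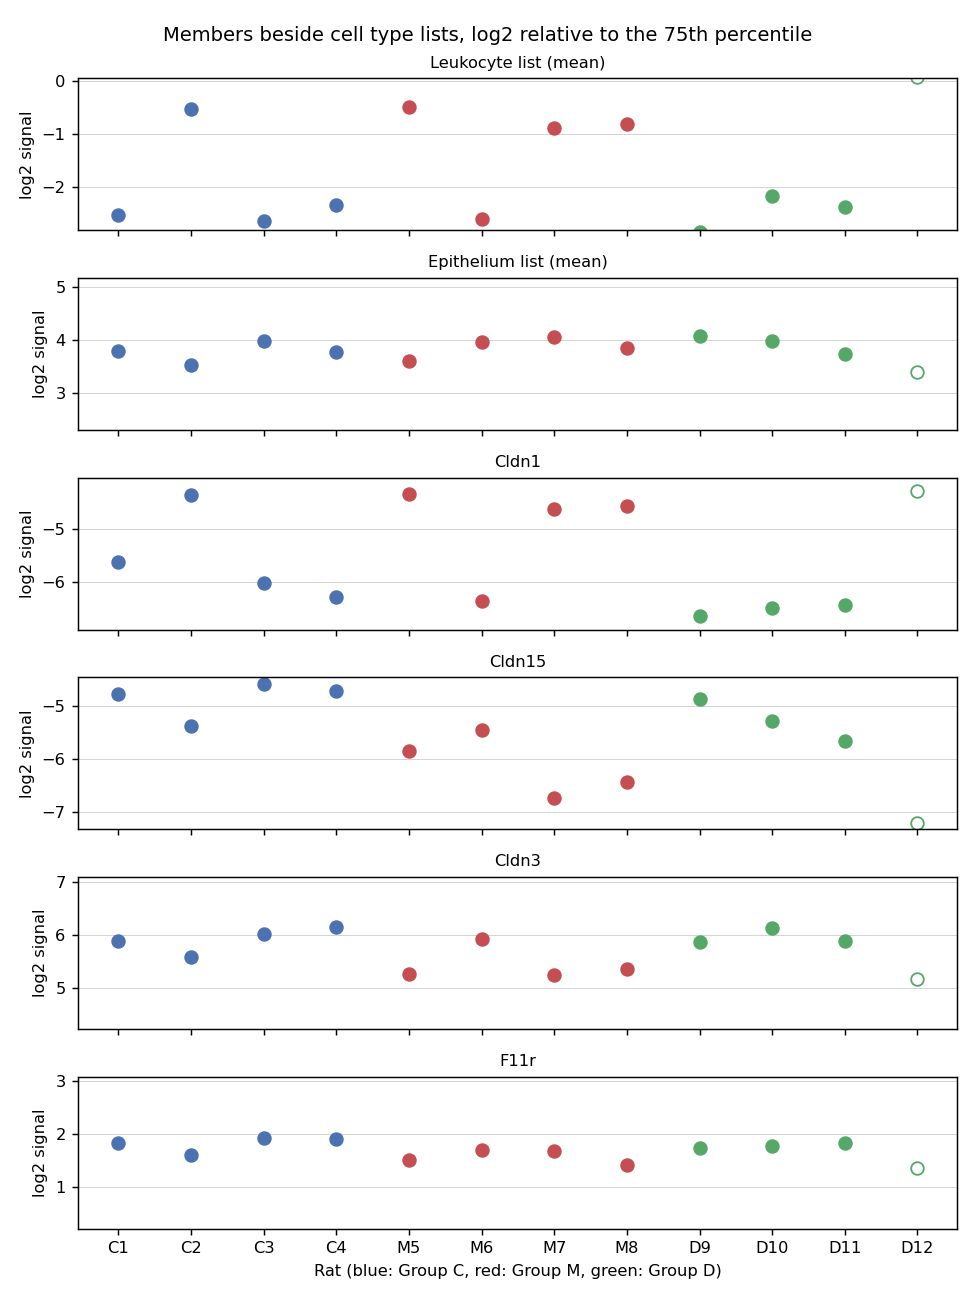
Mean level of the leukocyte and epithelium marker lists and the levels of Cldn1, Cldn15, Cldn3 and F11r in each rat (horizontal axis), in log2 signal relative to the 75th percentile (vertical axes of the same span). The high leukocyte means of C2, M5, M7, M8 and D12 coincide with high Cldn1 and, mostly, low Cldn15, Cldn3 and F11r. The epithelium list, at 3.40 to 4.08, is lowest in D12, C2 and M5, but is at 4.06 in M7 and 3.86 in M8.

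The other genes of cell junctions were taken from lists that were chosen with earlier results of these data known. Of 81 genes in 6 lists none was called in any comparison. At an unadjusted p of at most 0.05, 16 were higher and 13 lower in Group M than in Group C, that is, 35.8% beside 22.7% of all probes. In Group D against Group M it was 13 higher and 13 lower, 32.1% beside 21.6%, and in Group D against Group C 2 higher, the kinase gene Wnk4 (0.35) and the plakophilin Pkp2 (0.43), and none lower, 2.47% beside 5.97%. The median difference of the 81 genes was -0.03 in the first comparison and -0.02 in the second.

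Of the 15 other claudins on the array, 5 were well above background on no array and 2 were higher and 2 lower in Group M at the unadjusted p. Cldn23, a claudin of surface colonocytes, was at a mean of 2.50 ± 0.32 in Group C, 1.43 ± 0.34 in Group M and 2.58 ± 0.41 in D9 to D11, with adjusted p of 0.0895 (M vs C) and 0.0819 (D vs M) in limma. In D12 it was at 1.30, within the range of Group M. The D vs M difference of 1.15 was 0.83 with D12 included. Cldn22 differed by -0.75 between Groups M and C and by 0.89 between Groups D and M, and by -0.33 and 0.47 without M7, which stood apart at -7.42. Cldn14 was well above background in all 4 Group M rats (-6.06 to -4.38), in 1 of 4 Group C rats (C2 was at -5.28 and the others at -8.06 to -7.74) and in none of D9 to D11. D12 was at -5.81, within the range of Group M, so no fold is given for Cldn14.

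Of the 10 other membrane proteins of the junction, 1 was higher and 1 lower in Group M than in Group C at the unadjusted p, beside 22.7% of all probes. Ildr1, which seals the meeting point of 3 cells, differed by -1.06 between Groups M and C, and by -0.74 without M7. Marveld2 (tricellulin) differed by -0.52 and Marveld3, an occludin relative, by 0.60. Between Groups D and M no gene of this list reached the unadjusted p, and its differences moved with single rats. Ildr1 differed by 0.81, by 0.49 without M7 and by 0.40 with D12 included. Marveld2 differed by 0.57, by 0.36 without D11 and by 0.29 with D12, and Bves differed by 0.37 and by 0.15 with D12. Among 31 plaque and polarity proteins, 5 were higher and 8 lower in Group M than in Group C and 8 higher and 4 lower in Group D than in Group M. Tjp3 (ZO-3), a relative of Tjp1, differed by -0.58 between Groups M and C and the polarity kinase Prkci by -0.48, while Amotl1 differed by 0.83 and then by -0.94. Tiam1 (-0.92) and Llgl2 (0.82, and 0.52 with D12 included) had the lowest p of this list between Groups D and M beside Amotl1. With D12 included, Tiam1 differed by -0.84 and Amotl1 by -0.77 between these groups.

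Of 11 genes of the adherens junction, the belt of cadherins next to the tight junction, 3 were higher in Group M at the unadjusted p. They were the actin linker Vcl (0.74), the nectin Pvrl1 (0.84, well above background in 2 of 4 Group C rats) and Ctnnb1, which encodes β-catenin (0.53, and 0.29 without M7). Desmosomes anchor keratin filaments, and of their 8 genes Dsg2, a desmosomal cadherin, was higher (0.95) and Evpl, which encodes envoplakin, lower (-0.61) in Group M, while Jup differed by 0.47 (0.20 without M7). Gap junctions pass small molecules from cell to cell, and of their 6 genes 4 were higher and 1 lower, among them Gja5 (1.45) and Gja1 (1.03), which are connexins also found in vessels and muscle, and Gjb1 (-1.03), a connexin of epithelia. M7 was the rat whose absence brought Dsg2, Vcl, Gja5, Gja1 and Gjb1 closest to 0, without a change of sign.

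Between Groups D and M, in a comparison that shares Group M with the one before, Evpl differed by 0.85 (adjusted p of 0.0690 in limma). D12, at -1.24, lay below every Group M rat for Evpl, and the difference was 0.48 with it included. The differences were -0.83 for Dsg2, -0.68 for Vcl, -1.67 for Gja5, -1.03 for Gja1 and -0.92 for Gja4. D12 lay within the range of Group M for Vcl, Gja5, Gja1 and Gja4. With D12 included these 4 differed by -0.60, -1.36, -0.85 and -0.71, and Dsg2 by -0.92. Without M7, Dsg2 differed by -0.58 and Gja1 by -0.74. Pvrl1 differed by -1.24, with 1 of D9 to D11 well above background. Pvrl2 differed by 0.50 (0.25 without D9) and Pkp2 by 0.37 (0.28 without D10, 0.55 without M6 and 0.28 with D12 included). Between Groups D and C the gene with the lowest p of each list, beside Wnk4 and Pkp2, was Cldn5 (-0.60), Bves (0.17), Pvrl4 (-0.50) and Gja4 (-0.36), with adjusted p of 0.851 or more in limma. Of these, Bves was at 0.06 without D11 and -0.06 with D12, Gja4 at -0.18 without C2 and -0.14 with D12, and Wnk4 at 0.19 with D12.

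**Figure D4:**
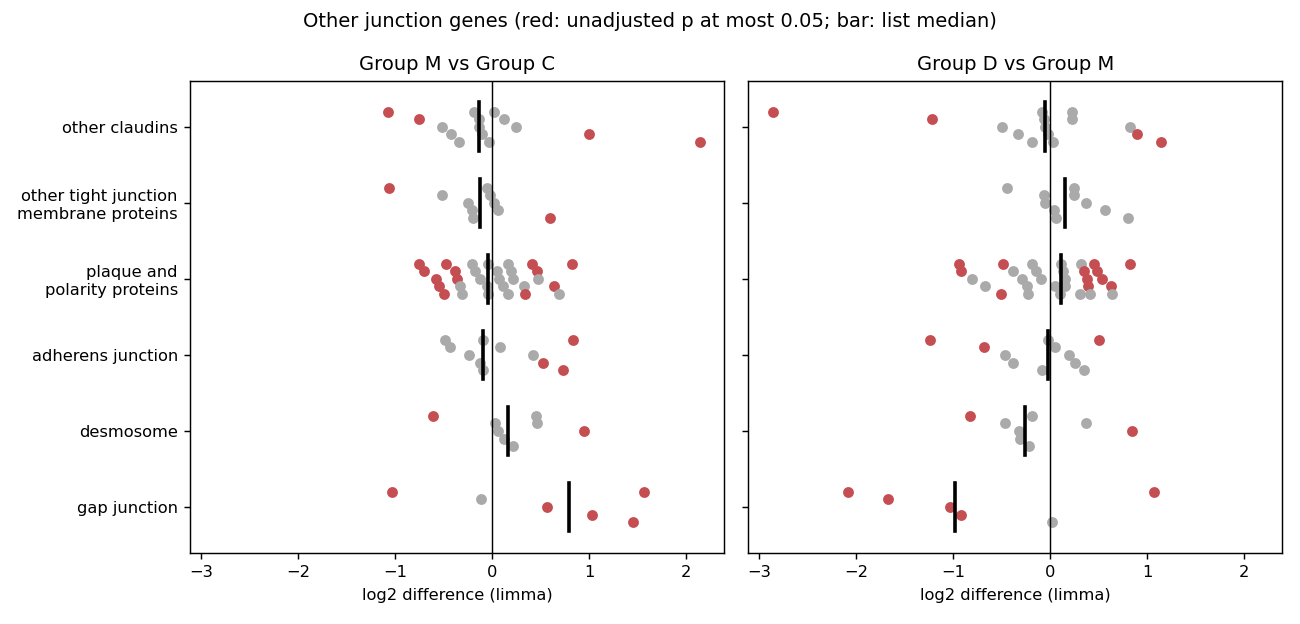
Log2 difference (horizontal axis) of each gene of the 6 junction lists in Group M vs Group C and Group D vs Group M, with genes at an unadjusted p of at most 0.05 in red, the others in grey and the median of each list as a bar. Red points lie on both sides of 0 in all lists but the adherens junction list in the first panel and the other membrane proteins in the second, none was called, and some claudins are below background, where a difference has no exact size.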

How the data were processed

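Total RNA of the colon of 12 rats (100 ng each, RNA integrity number over 6) was labelled with Cy3 and read on Agilent arrays of 62976 spots. Per the file headers, the authors' deposited intensities were made with Feature Extraction 10.5.1.1, which subtracts background and corrects trends across the array. The authors also deposited a matrix of log2 values normalized between arrays, which served as an alternative. Control spots (4259) and spots marked as outliers were left out, and log2 intensities were set against the 75th percentile of the array (intensity 1434 to 1953) and averaged over the spots of a probe. The number of arrays, 1 per rat, limits the precision, and repeated spots varied by a median of 3.90% to 6.09% (coefficient of variation) per array.

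The 3 groups were fitted in 1 model on 11 arrays with limma 3.58.1 in R 4.3.3, with Benjamini-Hochberg adjustment over all 30367 probes (19 of them without a value on some array). D12 was left out because the methods describe 11 arrays and show D9 to D11, with no reason given in the sources used here. On simulated data for 30348 probes with 200 changed by 2 log2 units, the fit recovered 173 (M vs C), 162 (D vs M) and 164 (D vs C). False calls numbered 15, 14 and 12. The noise was independent for each probe, and the largest member difference was 1.55 in size. The simulation therefore cannot tell how often differences of the members' size would be called. The members and the 15 gene lists (6 of junction genes, 9 of cell type markers, 160 of 169 genes on the array, 1 probe per gene by highest mean signal) were chosen with earlier results of these data known. Named were all members and, per junction list and comparison, the called genes or else the up to 3 genes with the lowest p where a gene had to be well above background in all rats of a group. For these genes the difference of group means was also computed without each rat, a step chosen after seeing the data. Alternatives were the inclusion of D12, background correction by normexp, quantile normalization, a shift to the median, the authors' matrix, outlier spots kept, a filter on dim probes, a replicate block, array weights, fits of only the compared groups, leaving out each rat, the second probe and the criterion of the methods. Genome positions follow the rn4 build, as listed for each probe. All 10 gene names matched a current RefSeq annotation. The VSL#3 dose printed is that of the labels, and the study's text gives a slightly different one. Figures were drawn with matplotlib.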

Additional observations from a re-analysis of the deposited data

Results flagged for a closer look

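In 5 of 36 sets of 4 rats (12 probes in 3 groups, with all 4 rats of Group D) 1 rat lay far from the other 3, by a gap that took up more of the whole range than Dixon's 95% critical value for 4 values allows (0.834 to 0.911 of the range). Chance alone marks about 1 in 20 such sets. The sets share the same rats and are not independent, so the number marked cannot be judged against that rate. The rats were M6 (3 times), D12 and C2.

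Cldn1 was at -6.37 in M6, where the nearest other Group M rat was at -4.62, and at -4.28 in D12, where the nearest other Group D rat was at -6.44. Cldn3 was at 5.93 in M6, against 5.36 in the nearest other Group M rat. Ocln was at 1.80 in M6, against 1.12. Cldn4 was at 2.02 in C2, against 2.54 in the nearest other Group C rat. M6 had a leukocyte list mean of -2.60 while the other Group M rats were at -0.89 to -0.49, D12 had a mean of 0.07 while D9 to D11 were at -2.85 to -2.17, and C2 had a mean of -0.53 while the other Group C rats were at -2.64 to -2.35. The part of this in the members' levels was not tested.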

How the results depend on the processing

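No member was called in any comparison with all 12 arrays, the normexp, quantile, median-shift or authors' values, outlier spots kept, dim probes left out, a replicate block, fits of only the 2 compared groups, or all 12 arrays except M6, an alternative chosen after seeing the data. Array weights called 3 members between Groups M and C and 4 between Groups D and M, and the criterion of the methods passed 1 (Cldn15) in Group M vs Group C. With 1 rat left out the number called was 0 to 2 for Group M vs Group C, 0 to 3 for Group D vs Group M and 0 for Group D vs Group C, and it was above 0 only without M6, in fits that leave D12 out. The counts over all probes moved far more: from 62, 52 and 2 to 12, 6 and 2 with all 12 arrays, 163, 332 and 3 with normexp, 53, 15 and 2 with the median shift, 33, 64 and 6 with the authors' values, 112, 267 and 2 without dim probes, 8151, 6576 and 4 with array weights, 23, 11 and 0 in fits of 2 groups, 188, 70 and 1 without M6 but with D12, and 49, 59 and 0 with quantile normalization. Leaving out 1 rat gave 5 to 4914, 1 to 4504 and 0 to 10.

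The replicate number, which is the column of the array on its slide, did not pair the rats. Deviations of rats with the same number correlated at -0.56 to -0.04 (M and C), -0.08 to -0.02 (D and M) and -0.12 to 0.13 (D and C), and 0 of 4, 0 of 3 and 1 of 3 rats correlated best with their own number. With the replicate block 0 members were called in each comparison, and 1, 1 and 0 of all probes.

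Of 30 gene differences, 19 kept their sign under every alternative. Over all 30 differences, 44 of the 666 values computed had the opposite sign, all of them in the others and uncalled. The cause of these opposite signs was not tested. In Group M vs Group C these were Cldn2 with array weights (-0.13) and Tjp1 with the median shift (-0.0214), array weights (-0.0523), all 12 arrays except M6 (-0.0128) and the second probe (-0.0637). In Group D vs Group M they were Cldn7 with all 12 arrays (-0.0242), Tjp1 with all 12 arrays (-0.0222) and the second probe (-0.0136), and Cldn8 with normexp (0.0111), quantile normalization (0.0365), the median shift (0.0448), the authors' matrix (0.0358), the replicate block (0.0408), array weights (0.0888) and all 12 arrays except M6 (0.17). In Group D vs Group C they were Cldn3 with all 12 arrays and all 12 arrays except M6 (-0.14 both), Cldn4 with array weights (-0.0195), F11r with the median shift (0.0062) and Tjp1 with all 12 arrays and all 12 arrays except M6 (-0.0035 both) and the second probe (-0.0774). With 1 rat left out, the ranges that crossed 0 were, in Group M vs Group C, -0.0649 to 0.20 for Cldn2, -0.30 to 0.24 for Ocln and -0.0489 to 0.10 for Tjp1. In Group D vs Group M they were -0.0508 to 0.13 for Cldn7, -0.21 to 0.23 for Cldn8 and -0.0424 to 0.14 for Tjp1. In Group D vs Group C they were -0.0569 to 0.13 for Cldn3, -0.10 to 0.10 for Cldn4, -0.51 to 0.0173 for Ocln and -0.0062 to 0.16 for Tjp1. Cldn1 was not well above background in D9 and Cldn15 not in D12, which limits the size of their differences.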

Other observations

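For each member probe read on every array, the 3 genes whose levels followed it most closely over the 12 arrays were found by Pearson's r among 13994 named probes, each well above background on all arrays. These are descriptions of 12 arrays that share slides and cell makeup, and no p was computed. Cldn3 was followed most closely by Prss32, Edn2 and Higd2a (r of 0.99, 0.98 and 0.98) and F11r by Uaca, Sema4g and Gramd3 (0.96, 0.96 and 0.95). Tjp1 was followed by Crb3 (0.95) at probe 1 and by Lsr (0.91) and Mpp5 (0.90) at probe 2. Ppp2r3a stood among the closest 3 for both Tjp1 probes (0.88 and 0.90). For Cldn7 they were Dlg3, Dnm2 and Nedd4l (0.94, 0.91 and 0.90), for Cldn8 Man2b2, Gabarapl1 and Fosl2 (0.94, 0.94 and 0.92) and for Ocln Npas2, Capsl and Dpm1 (0.96, 0.94 and 0.94). For Cldn2 no gene was among the closest 3 of both probes, and the closest were Man1b1 at probe 1 (0.90) and Solh at probe 2 (0.89). For Cldn4 the closest gene was Vom2r47 (0.83). Cldn1 and Cldn15, each not well above background on 1 array, were left out.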
